A study of Mus musculus with 186 samples.

Results

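Transitional alveolar epithelium genes are described here as a set of 10: Krt8, Krt18, Krt19, Krt7, Tnip3, Cldn4, Sfn, Ankrd1, Areg and Clu. They were chosen by name and found through their Ensembl IDs and the GENCODE M21 annotation of GRCm38, as 10 of the 22095 gene IDs in the count table, and all 10 passed the filter on low counts. The RNA came from the superior lung lobe of female C57BL/6 mice of about 12 weeks in a subcutaneous bleomycin model of scleroderma, and was sequenced in bulk in 93 lungs. Bleomycin, an antibiotic that breaks DNA, was injected under the skin of the back at 10 mg/kg/day, 5 times per week for 2 weeks, and control mice received phosphate-buffered saline (PBS). On days 7 and 14 there was no oral dosing, and 7 bleomycin and 8 PBS lungs (day 7) and 8 of each (day 14) were sequenced. From day 12 the remaining mice were given an oral vehicle, which the PBS mice also received, or SB525334, an inhibitor of the TGF-beta type I receptor kinase ALK5, at 30 mpk BID, with last doses on day 27. The groups with vehicle held 7 bleomycin and 8 PBS lungs on day 21, 7 of each on day 28 and 8 of each on day 42. SB525334 after bleomycin was given to 9 mice taken on day 21 and 8 taken on day 28. The labels name no mouse for a library, so each lung library was treated as a separate mouse.

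Alveoli are lined by flat alveolar type 1 cells, across which gas is exchanged, and by alveolar type 2 cells, which make surfactant and serve as the progenitors that replace type 1 cells after injury. On the way from type 2 to type 1, cells pass through a stretched, stressed state that is known for high simple-epithelial keratins, p53 targets and tight junction claudins, and that builds up in fibrotic lungs. The 10 genes are used as marks of that state, but none belongs to it alone: Krt8, Krt18, Krt19 and Krt7 are also made by airway and mesothelial cells, Sfn and Cldn4 by squamous epithelium, Areg by immune cells and Ankrd1 by muscle. In bulk tissue, more cells of a kind and more RNA per cell cannot be told apart, and what share of each signal came from alveolar cells was not tested.

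Total counts, in units of 1 M (mega), ran from 4.79 to 38.3 per lung. The lung label was borne out by surfactant and other alveolar type 2 markers, whose 15 genes summed to between 11182 and 39896 CPM (counts scaled to a common library size with TMM, per M counts) in the 93 libraries. Of these, 5 held at least 500 CPM of markers of another tissue. They were replicates 5 and 6 of PBS on day 7 and replicate 6 of PBS on day 14 (epidermal and hair markers), replicate 2 of bleomycin with vehicle on day 28 (squamous and skeletal muscle markers) and replicate 1 of bleomycin with vehicle on day 42 (liver markers). A further 10, all taken on day 28 and prepared on plate P1, held 5.00 to 14.1% of their counts in ribosomal protein genes, against 1.66 to 3.38% in the other 83. They were replicates 1 to 6 under SB525334, 1, 4 and 5 with vehicle after bleomycin, and 2 of PBS. In 3 lungs the 10 most abundant genes took 14.5 to 25.0% of the counts. No library was left out of the main tests. Many results are also given without the doubted ones, and a count given for all libraries alone may also change without them.

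All genes called in a direction passed an adjusted p of 0.050 in edgeR's quasi-likelihood F test over the 15647 genes tested, and log2 fold changes are given ± standard error (SE). After 7 days of bleomycin 7 of the 10 genes rose (Krt8, Krt18, Krt19, Krt7, Tnip3, Ankrd1 and Clu), where 13.9% of all genes tested rose. On day 14 9 rose, all but Sfn, against 21% of all genes. On day 21 8 rose, all but Sfn and Ankrd1, against 15.9% of all genes. On day 28 8 rose, all but Krt19 and Ankrd1, against 19.7%. By day 42 Tnip3, Areg and Clu were still higher, against 12.6% of all genes, and Ankrd1 had fallen below PBS, against 6.77%. The median log2 fold change of the 10 was 0.55, 1.01, 0.85, 0.52 and 0.21 on days 7, 14, 21, 28 and 42, and that of all genes tested lay between -0.03 and 0.02.

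**Figure D1:**
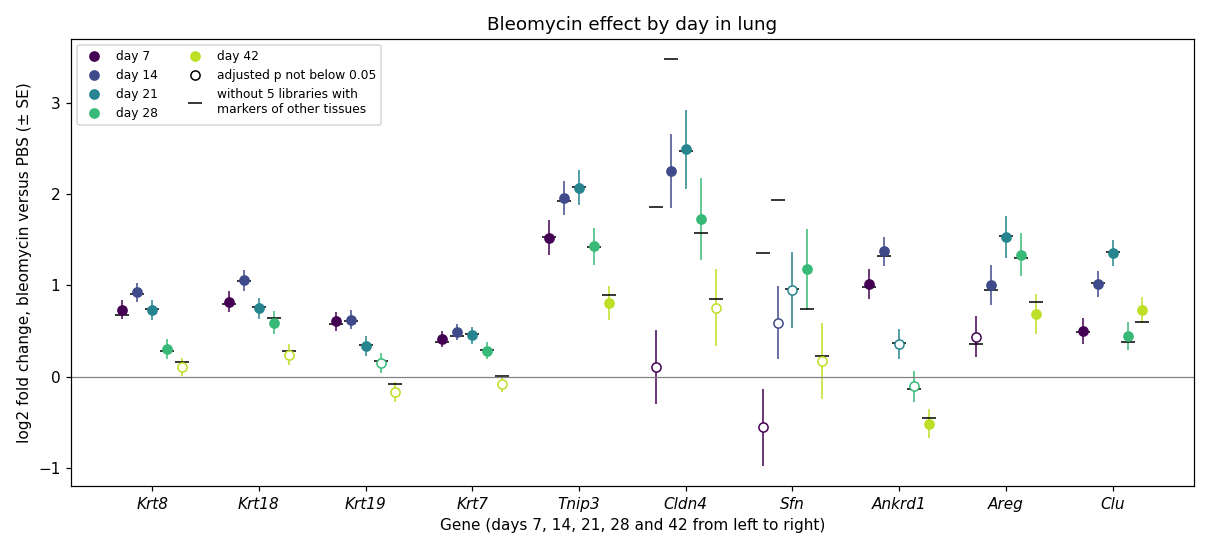
Log2 fold change (± SE) of bleomycin over PBS for each of the 10 genes in lung, with days 7, 14, 21, 28 and 42 from left to right; filled points passed an adjusted p of 0.050, open points did not, and black dashes give the value without 5 libraries that held markers of other tissues. The keratins peak on day 14 at 0.49 to 1.06, Tnip3 and Cldn4 reach above 2, Ankrd1 falls from 1.37 on day 14 to -0.52 on day 42, and the dashes lie far from the points for Cldn4 and Sfn on days 7 and 14.

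The groups separated completely for 7 genes on day 7: every bleomycin lung was above every PBS lung, which held for 5.69% of all genes. This was so for 6 of the 10 on day 14 (7.75% of all genes), 7 on day 21 (9.86%), 0 on day 28 (0.141%) and 1 on day 42 (2.54%). On day 28 nearly all genes overlapped between the groups. Without the 5 libraries with markers of other tissues the groups were apart for 9 genes on day 7 (8.69% of all genes), 8 on day 14 (9.47%), 7 on day 21 (9.86%), 0 on day 28 (0.185%) and 2 on day 42, Krt18 and Clu (4.35%). Over these remaining libraries 9 of the 10 genes were called higher on day 7 (15.7% of all genes), 10 on day 14 (23.8%), 9 on day 21 (18.6%), 8 on day 28 (23.1%) and 4 on day 42 (9.26%, with Ankrd1 lower). Libraries were prepared on 2 plates. Within each plate alone the called genes kept their sign on every day, with the exception of Clu on day 28 among 2 bleomycin and 2 PBS lungs of plate P2 (-0.22). Some of these groups were small: plate P1 held 1 bleomycin and 1 PBS lung on day 14. The day 42 difference of Ankrd1 was -0.79 on plate P1 and -0.15 on plate P2.

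Krt8 (ENSMUSG00000049382, chr15:101996698-102004482, minus strand) and Krt18 (ENSMUSG00000023043, chr15:102028180-102032027, plus strand) encode the type II and type I keratins that pair in the filaments of simple epithelium. Krt8 stood at 127 to 193 CPM (median 158) in the 8 PBS lungs of day 7 and at 211 to 341 CPM (median 255) in the 7 bleomycin lungs. On day 14 it was at 136 to 221 CPM (median 157) after PBS and 251 to 359 CPM (median 316) after bleomycin. The groups did not overlap on either day, and Krt8 rose by 0.73 ± 0.11 (adjusted p = 1e-07) and by 0.92 ± 0.10 (adjusted p = 9.5e-12). Its rise was 0.73 ± 0.11 on day 21 and 0.30 ± 0.11 (adjusted p = 0.026) on day 28, when the medians were 237 CPM after bleomycin and 223 CPM after PBS and the groups overlapped. On day 42 the difference was 0.11 ± 0.10 (adjusted p = 0.55).

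Krt18 followed the same course at a lower level. On day 14 its 8 PBS lungs lay at 71.4 to 124 CPM (median 76.7) and its 8 bleomycin lungs at 137 to 213 CPM (median 171), with no overlap. The rise was 0.82 ± 0.12 on day 7, 1.06 ± 0.11 (adjusted p = 2.4e-12) on day 14, 0.75 ± 0.12 on day 21 and 0.59 ± 0.12 (adjusted p = 0.00014) on day 28. On day 42 Krt18 was at 68.1 to 106 CPM (median 90.0) after bleomycin and 66.7 to 86.7 CPM (median 77.6) after PBS, and 7 of 8 bleomycin lungs were above every PBS lung. That difference, 0.24 ± 0.11, did not pass (adjusted p = 0.13), and the library below them was replicate 1, the lung with liver markers.

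Krt19 (ENSMUSG00000020911, chr11:100140810-100148665, minus strand), a type I keratin without a tail domain found in ducts and airways, was the first of the 4 keratins to miss the threshold. Its lungs were at 82.5 to 121 CPM (median 90.8) after PBS and 126 to 189 CPM (median 133) after bleomycin on day 7, without overlap. It rose by 0.60 ± 0.11 on day 7, 0.62 ± 0.10 on day 14 and 0.33 ± 0.11 (adjusted p = 0.011) on day 21. On day 28 the difference was 0.15 ± 0.11 (adjusted p = 0.29) and on day 42 -0.17 ± 0.10 (adjusted p = 0.28). Krt7 (ENSMUSG00000023039, chr15:101411043-101430313, plus strand), a type II keratin of simple epithelium, had the smallest rise of the 4 on days 7 and 14. On day 14 it lay at 178 to 269 CPM (median 246) after PBS and 280 to 393 CPM (median 344) after bleomycin, and the groups did not overlap. It rose by 0.41 ± 0.09 on day 7, 0.49 ± 0.09 on day 14, 0.45 ± 0.09 on day 21 and 0.28 ± 0.09 (adjusted p = 0.015) on day 28, and stood at -0.08 ± 0.09 (adjusted p = 0.60) on day 42.

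**Figure D2:**
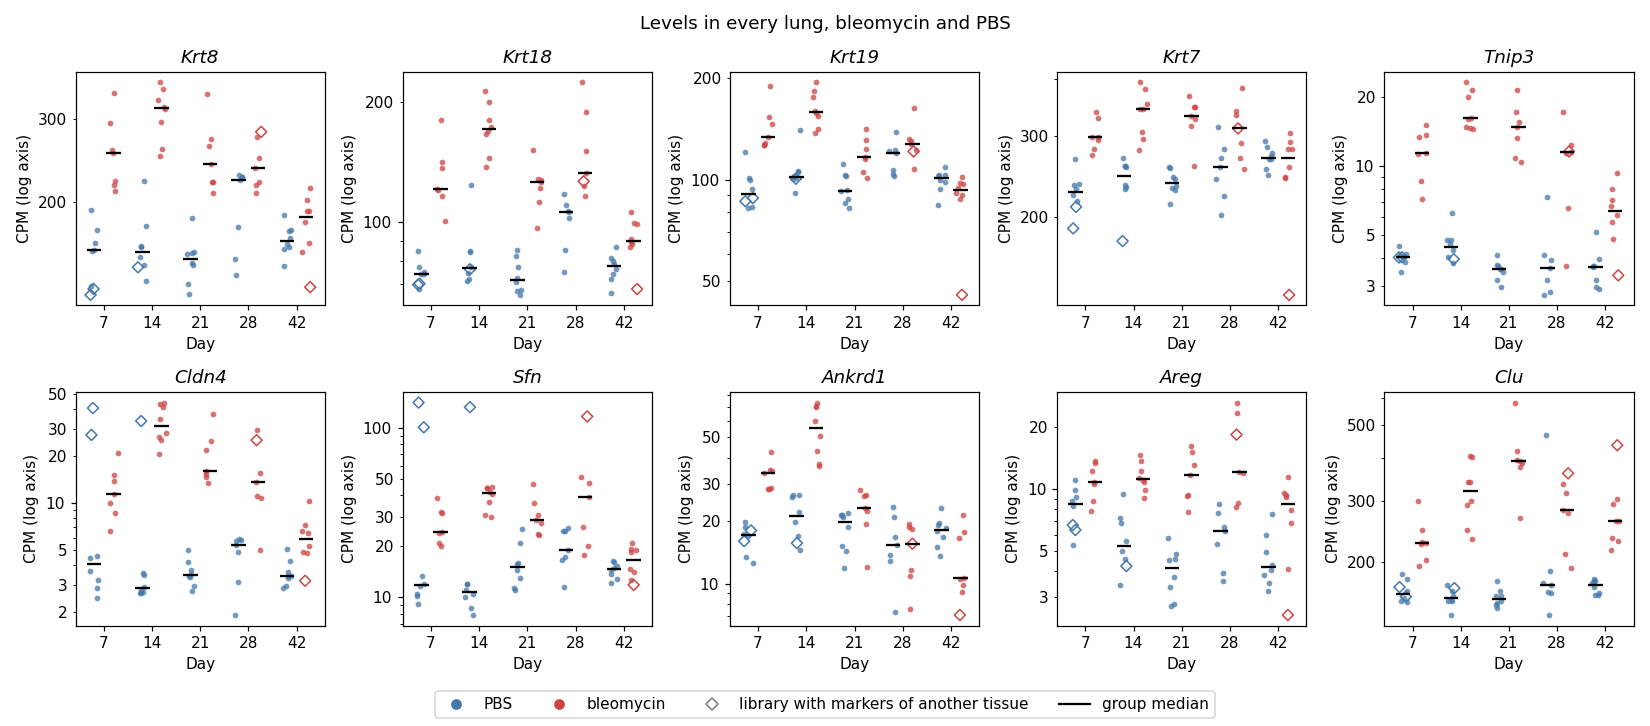
CPM (log axis) of each of the 10 genes in every PBS (blue) and bleomycin (red) lung by day, with the group median as a bar; open diamonds are the 5 libraries with markers of another tissue. The bleomycin lungs lie above the PBS lungs on days 7 to 21 for most genes, with Krt8 at 251 to 359 CPM against 136 to 221 CPM on day 14, and 3 PBS diamonds stand far above their groups for Cldn4 and Sfn.

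Cldn4 (ENSMUSG00000047501, chr5:134945119-134946934, minus strand) encodes claudin 4, a tight junction protein that limits leak through alveolar epithelium. Its promoter window (chr5:134946885-134947184), 250 bases before to 50 after the start, is shown because the gene had the largest fold change of the 10 on days 14, 21 and 28, and because it holds the AP-1 motif TGAGTCA (searched on both strands) 2 times. Capitals mark the matches, which read TGACTCA on the strand shown, 5′ to 3′ along the gene, from RefSeq on GRCm38.p6.
Cldn4 promoter: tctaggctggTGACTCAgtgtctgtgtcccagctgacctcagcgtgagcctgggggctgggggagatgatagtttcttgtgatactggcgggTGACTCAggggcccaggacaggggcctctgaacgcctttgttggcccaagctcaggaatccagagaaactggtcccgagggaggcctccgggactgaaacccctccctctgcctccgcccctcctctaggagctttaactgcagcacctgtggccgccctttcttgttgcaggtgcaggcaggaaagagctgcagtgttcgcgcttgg
Of the 32851 RefSeq promoter windows of the same length, 5.20% held this motif and 0.222% held it at least 2 times. None of the other 7 members with a promoter in the table held it, and whether AP-1 factors bind there was not measured.

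In PBS lungs free of other-tissue markers Cldn4 was scarce. On day 14, 7 such lungs were at 2.64 to 3.54 CPM (median 2.78), while the 8 bleomycin lungs were at 20.5 to 44.0 CPM (median 31.3). On day 21 the range was 2.72 to 4.97 CPM (median 3.46) after PBS and 13.4 to 37.4 CPM (median 16.0) after bleomycin. On both days the bleomycin lungs lay wholly above these PBS lungs. With all libraries Cldn4 rose by 2.26 ± 0.41 (adjusted p = 3.7e-06) on day 14, 2.49 ± 0.43 (adjusted p = 2.35e-06) on day 21 and 1.73 ± 0.45 (adjusted p = 0.0019) on day 28. It did not pass on day 7 (0.10 ± 0.41, adjusted p = 0.88) or day 42 (0.76 ± 0.42, adjusted p = 0.22). Without the 5 libraries it rose on all 5 days, by 1.86 ± 0.24 on day 7, 3.48 ± 0.23 on day 14 and 0.85 ± 0.22 (adjusted p = 0.0037) on day 42.

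Sfn (ENSMUSG00000047281, chr4:133600556-133602168, minus strand) encodes 14-3-3 sigma, a p53 target that holds cells at a cell-cycle checkpoint and is abundant in stratified epithelium. In the 8 PBS lungs of day 7 it was at 9.08 to 141 CPM (median 11.7), and in the 7 bleomycin lungs at 20.2 to 38.5 CPM (median 24.4). The PBS group held 6 lungs at or below 13.4 CPM and replicates 5 and 6 at 141 and 101 CPM. With all libraries Sfn was called on day 28 alone (1.17 ± 0.44, adjusted p = 0.029), and its values were -0.55 ± 0.42 (adjusted p = 0.33) on day 7, 0.59 ± 0.40 (adjusted p = 0.22) on day 14 and 0.95 ± 0.42 (adjusted p = 0.068) on day 21. Without the 5 libraries the sign on day 7 turned and Sfn rose by 1.36 ± 0.17 (adjusted p = 2.15e-09) on day 7, 1.94 ± 0.16 (adjusted p = 4.65e-17) on day 14 and 0.96 ± 0.15 (adjusted p = 2.8e-07) on day 21. In the remaining lungs of day 14 Sfn was at 7.86 to 12.0 CPM (median 10.5) after PBS and 29.8 to 44.7 CPM (median 41.6) after bleomycin, without overlap.

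**Figure D3:**
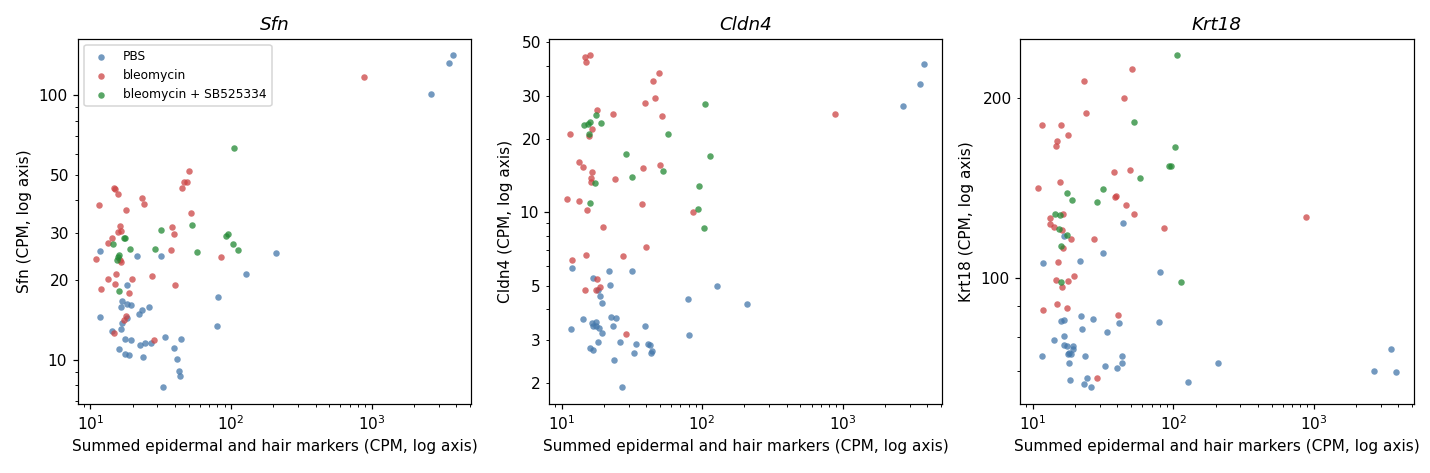
CPM of Sfn, Cldn4 and Krt18 (vertical, log axis) against the summed CPM of epidermal and hair markers (horizontal, log axis) in each of the 93 lungs, coloured by treatment. The 3 PBS lungs with 2667 to 3817 CPM of epidermal and hair markers are the highest PBS lungs for Sfn (101 to 141 CPM) and Cldn4 (27.3 to 40.6 CPM), but not for Krt18.

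The 3 PBS lungs with high Sfn and Cldn4 carried epidermal and hair markers, and their part in these values was not tested. The 18 epidermal and hair markers, of which 17 passed the filter, included Krt5, Krt14, Lor and hair keratins, and summed to 3817, 2667 and 3538 CPM in the 3 PBS lungs and to at most 208 CPM in the other 36. In 39 PBS skin samples of the same series Sfn had a median of 334 CPM and Cldn4 63.3 CPM, against lung PBS medians of 13.1 and 3.39 CPM without the 3 libraries. Skin medians of Krt8, Krt18, Krt19 and Krt7 were 0.635, 0.472, 1.20 and 2.35 CPM, under the 160, 76.4, 101 and 247 CPM of PBS lung. Levels in the 2 tissues were scaled separately, so these pairs give an order of size and no tested difference. All 17 of these markers were called lower after bleomycin on days 7 and 14, and without the 5 libraries 0 of 14 were on day 7 and 1 on day 14. Replicate 2 of the day 28 bleomycin lungs, with 9569 CPM of squamous and 4694 CPM of skeletal muscle markers, was the highest of its group for Sfn at 117 CPM, and without the 5 libraries the Sfn rise on day 28 was 0.75.

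Among the 12 other claudins tested, 3 rose and 5 fell on day 14, with a median log2 fold change of -0.10. Cldn2, a leaky-junction claudin, rose by 2.79 ± 0.59, while Cldn5 of endothelium fell by 0.64 on the log2 scale, Cldn1 by 1.25 and Cldn23 by 0.69. On days 7, 21, 28 and 42 the counts of rises and falls were 1 and 4, 2 and 3, 3 and 1, and 1 and 3. The counts without the 5 libraries with markers of other tissues were 1 and 3 on day 7 and 2 and 4 on day 21. They were 4 and 2 on day 28 and 2 and 2 on day 42, and Cldn1 was then at -0.67 ± 0.13 on day 14. Of the 6 other 14-3-3 genes, which bind phosphorylated client proteins, 3 rose on day 7 and 4 on each of days 14, 21 and 28. Their changes were small: Ywhag rose by 0.37 ± 0.07 and Ywhah by 0.25 ± 0.06 on day 14. On day 42 edgeR called 0 of the 6, with 3 at an unadjusted p under 0.05.

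Tnip3 (ENSMUSG00000044162, chr6:65525313-65634040, plus strand) encodes ABIN-3, a binding partner of A20 that restrains NF-kappaB signalling. PBS lungs held 2.75 to 7.37 CPM over all 5 days. On day 7 the bleomycin lungs were at 7.20 to 15.1 CPM (median 11.5) against 3.46 to 4.49 CPM (median 4.02) after PBS. On day 14 they were at 14.5 to 23.2 CPM (median 16.2) against 3.80 to 6.24 CPM (median 4.45), and on day 21 at 10.5 to 21.6 CPM (median 14.8) against 2.97 to 4.11 CPM (median 3.56). The groups were apart on all of these days. Tnip3 was the only member to be called higher on every day with all libraries besides Clu, by 1.52 ± 0.19, 1.95 ± 0.19 (adjusted p = 2e-14), 2.07 ± 0.19 (adjusted p = 1.5e-14), 1.43 ± 0.20 and 0.81 ± 0.19 (adjusted p = 0.00069). On day 42 its bleomycin lungs, at 3.35 to 9.39 CPM (median 6.40), overlapped the PBS lungs at 2.91 to 5.17 CPM (median 3.65), with 6 of 8 above every PBS lung.

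The NF-kappaB pattern (GGGA, then any 4 bases, then CC), searched on both strands, was found once in the Tnip3 window (chr6:65590148-65590447, plus strand) and once in that of Krt18 (chr15:102027966-102028265, plus strand). Each match reads as the motif on both strands and is capitalised. The Tnip3 window was placed at a RefSeq start and lies inside the GENCODE span of the gene, which begins at base 65525313. The windows are shown because these genes gave the largest fold change among the members called on every day and among the keratins.
Tnip3 promoter: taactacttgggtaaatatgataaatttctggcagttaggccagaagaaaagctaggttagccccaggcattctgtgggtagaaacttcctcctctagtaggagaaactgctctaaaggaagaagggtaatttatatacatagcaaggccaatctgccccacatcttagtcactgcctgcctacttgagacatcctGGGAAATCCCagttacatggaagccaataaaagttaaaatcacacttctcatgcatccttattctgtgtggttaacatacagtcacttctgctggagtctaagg
Krt18 promoter: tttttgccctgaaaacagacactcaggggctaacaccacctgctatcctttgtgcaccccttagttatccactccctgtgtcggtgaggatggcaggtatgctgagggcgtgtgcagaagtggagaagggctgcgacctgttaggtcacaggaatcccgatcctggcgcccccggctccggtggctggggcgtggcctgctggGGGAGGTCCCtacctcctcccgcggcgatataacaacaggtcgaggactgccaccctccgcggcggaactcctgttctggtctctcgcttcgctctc
The pattern was in 2 of 8 member windows and in 20.7% of all windows. Among 10 other NF-kappaB feedback genes, which switch the pathway off or process its subunits, 5 rose and 2 fell on day 14. Nfkb2 rose by 0.58 ± 0.09, Bcl3 by 0.88 ± 0.19 and Nfkbie by 0.65 ± 0.15, and Nfkbia fell by 0.49 on the log2 scale. Rises and falls numbered 2 and 0 on day 7, 1 and 0 on day 21, 0 and 2 on day 28 and 4 and 1 on day 42. On day 28 2 rose and 1 fell without the 5 libraries with markers of other tissues, on day 21 2 and 0, and on day 42 3 and 1. Macrophages also express Tnip3, and of 17 macrophage markers 11, 15, 13, 12 and 13 rose on the 5 days, while 1, 1, 1, 3 and 3 fell. Without the 5 libraries 13 of these markers rose on day 28. Their sum on day 14 ran from 2675 to 4568 CPM after bleomycin and from 1204 to 1832 CPM after PBS, and its part in the Tnip3 values was not tested.

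Ankrd1 (ENSMUSG00000024803, chr19:36111961-36120099, minus strand) encodes an ankyrin repeat protein of stretched muscle and is a classical target of the mechanosensitive coactivators YAP and TAZ. It was the only member called lower than PBS on any day. On day 7 it was at 12.6 to 19.6 CPM (median 17.1) after PBS and 28.3 to 42.6 CPM (median 33.7) after bleomycin. On day 14 it was at 14.6 to 26.6 CPM (median 21.0) against 36.4 to 73.2 CPM (median 55.2). The groups were fully apart, with rises of 1.01 ± 0.16 (adjusted p = 9.6e-07) and 1.37 ± 0.16 (adjusted p = 2.1e-11). On day 21 the bleomycin lungs had come back to 12.0 to 28.1 CPM (median 23.1) against 11.9 to 21.9 CPM (median 19.7), a difference of 0.36 ± 0.16 that did not pass (adjusted p = 0.077). On day 28 the value was -0.11 ± 0.17 (adjusted p = 0.65). On day 42 Ankrd1 was at 7.10 to 21.3 CPM (median 10.6) after bleomycin and 13.6 to 22.9 CPM (median 18.1) after PBS, overlapping groups that gave a fall of -0.52 ± 0.16 (adjusted p = 0.013).

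The Ankrd1 window (chr19:36119795-36120094, minus strand) is shown since it holds the TEAD motif GGAATG, the sequence read by the DNA-binding partners of YAP, 2 times on the strand shown. The motif was searched on both strands and its matches are capitalised.
Ankrd1 promoter: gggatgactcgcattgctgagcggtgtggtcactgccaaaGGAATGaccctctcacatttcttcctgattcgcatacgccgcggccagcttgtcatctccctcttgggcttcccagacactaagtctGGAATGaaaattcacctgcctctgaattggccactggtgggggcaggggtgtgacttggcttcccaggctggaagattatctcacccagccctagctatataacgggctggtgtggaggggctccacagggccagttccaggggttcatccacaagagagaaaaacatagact
GGAATG was in 14.7% of all windows and 2 or more times in 1.36%, and in no other of the 8 member windows. Of 21 other YAP and TAZ target genes, 5 rose and 8 fell on day 7, and 10 rose and 9 fell on day 14. Ccn1, a matricellular protein, rose by 0.89 ± 0.16 on day 14, while Igfbp3 fell by 3.23 on the log2 scale, Rbms3 by 0.69 and Lats2 by 0.53. On days 21, 28 and 42 the counts were 10 and 6, 8 and 5, and 5 and 3. Without the 5 libraries they were 11 and 9 on day 14, 9 and 5 on day 28 and 5 and 2 on day 42. Ankrd1 is also a gene of heart muscle, and of 12 cardiac markers 0 rose and 1, 8, 1, 7 and 11 fell over the 5 days. Without the 5 libraries 2 fell on day 7 and 10 on day 42. On day 42 the cardiac markers summed to 223 to 524 CPM (median 328) after bleomycin and 514 to 675 CPM (median 615) after PBS. Ankrd1 was lower after bleomycin on that day too, and the part of these markers in its fall was not tested. On day 14, when Ankrd1 was highest, the cardiac sum was lower after bleomycin, at 268 to 459 CPM (median 349) against 349 to 785 CPM (median 535).

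Areg (ENSMUSG00000029378, chr5:91139599-91148432, plus strand) encodes amphiregulin, a ligand of the EGF receptor made by epithelium and by tissue immune cells. It was first called on day 14. On day 7 the PBS lungs were at 5.38 to 11.0 CPM (median 8.50) and the bleomycin lungs at 7.86 to 13.6 CPM (median 10.8), a difference of 0.44 ± 0.23 that did not pass (adjusted p = 0.13). On day 21 the PBS lungs were at 2.70 to 5.81 CPM (median 4.15) and the bleomycin lungs at 7.76 to 16.2 CPM (median 11.8), with no overlap. The PBS median was lower on day 21 than on day 7, and the bleomycin median was not. Areg rose by 1.00 ± 0.22 (adjusted p = 0.00011) on day 14, 1.53 ± 0.23 (adjusted p = 1.2e-07) on day 21, 1.34 ± 0.24 (adjusted p = 1.7e-05) on day 28 and 0.69 ± 0.22 (adjusted p = 0.020) on day 42. On day 28 it reached 8.22 to 26.2 CPM (median 12.1) after bleomycin against 3.60 to 8.44 CPM (median 6.23) after PBS, and 6 of 7 bleomycin lungs were above every PBS lung.

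Of 9 other EGF family ligands and receptors tested, 2 rose and 3 fell on day 14. The ligands Hbegf and Ereg rose by 1.00 ± 0.11 and 2.40 ± 0.43, and the receptor Egfr and the ligand Tgfa fell by 0.58 and 0.43 on the log2 scale. Counts of rises and falls were 1 and 5 on day 7, 2 and 2 on day 21, 3 and 1 on day 28 and 2 and 0 on day 42. These were, without the 5 libraries with markers of other tissues, 2 and 2 on days 7 and 42, 2 and 4 on day 14, 2 and 3 on day 21 and 3 and 2 on day 28. Mast cells, basophils, innate lymphoid cells and regulatory T cells also make amphiregulin. Of 11 of their markers tested, 2 rose and 6 fell on day 7, 3 and 5 on day 14, 2 and 2 on day 21, 3 and 1 on day 28 and 2 and 0 on day 42. When the 5 libraries with markers of other tissues were left out, 2 rose and 1 fell on day 7, and 3 and 1 on day 14. The counts were then 3 and 2 on day 21 and 3 and 0 on day 42. Ctla4 and Foxp3, marks of regulatory T cells, rose on day 14 by 1.76 ± 0.22 and 1.67 ± 0.42, and Rora of innate lymphoid cells and the mast cell protease Cma1 fell by 0.61 and 1.10 on the log2 scale; without the 5 libraries Cma1 was at -0.27 ± 0.28 (adjusted p = 0.441). The markers' sum was lower after bleomycin on day 14, at 155 to 204 CPM (median 171) against 207 to 289 CPM (median 227), and their part in the Areg values was not tested.

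Clu (ENSMUSG00000022037, chr14:65968483-65981547, plus strand) encodes clusterin, a secreted chaperone that binds unfolded protein. Its difference was largest on day 21. On day 14 it was at 141 to 172 CPM (median 157) after PBS and 233 to 406 CPM (median 321) after bleomycin, and on day 21 at 147 to 176 CPM (median 157) against 269 to 580 CPM (median 393). The groups were apart on days 7, 14, 21 and 42. Clu rose by 0.50 ± 0.15 (adjusted p = 0.0055) on day 7, 1.02 ± 0.14 on day 14, 1.36 ± 0.15 (adjusted p = 4.8e-12) on day 21, 0.45 ± 0.15 (adjusted p = 0.017) on day 28 and 0.73 ± 0.14 (adjusted p = 5e-05) on day 42. On day 42 the bleomycin lungs were at 217 to 436 CPM (median 263) and the PBS lungs at 161 to 179 CPM (median 172), and Clu was the sole member with no overlap on that day. The highest of these was replicate 1, the lung with liver markers, which was the lowest of its group for the other 9 genes.

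On day 28 PBS replicate 6 stood out for Clu, at 466 CPM against at most 189 CPM in the other 6 PBS lungs, and it held the largest sum of mesothelial markers of any lung, 945 CPM. Mesothelium lines the lung surface; the part of these markers in the Clu value was not tested. Without this library Clu rose by 0.76 ± 0.13 (adjusted p = 6.41e-06) on day 28, while Krt8 (0.25 ± 0.11, adjusted p = 0.0799) and Sfn (1.09 ± 0.46, adjusted p = 0.0541) were no longer called. Of 10 mesothelial markers 0, 1, 0, 0 and 0 rose and 3, 8, 6, 4 and 3 fell on days 7 to 42. Without the 5 libraries 2, 6, 6, 5 and 3 fell. Among 12 other chaperones of the endoplasmic reticulum, heat shock and lipid transport, 6 rose and 1 fell on day 7, 5 and 1 on day 14, 5 and 0 on day 21, 3 and 0 on day 28 and 2 and 0 on day 42. On day 28 without the 5 libraries with markers of other tissues 3 rose and 4 fell, on day 7 4 and 0, and on day 14 6 and 0. Pdia3 rose by 0.33 ± 0.06 on day 14, Canx by 0.27 ± 0.06, Hspa5 by 0.41 ± 0.13 and the apolipoprotein Apoe by 1.24 ± 0.26.

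The day 28 calls rested on the libraries used. Without the 10 lungs high in ribosomal protein genes, 4 bleomycin and 6 PBS lungs were left on that day. Then 3 of the 10 genes were called, Tnip3, Cldn4 and Areg. Of all 16776 genes 3697 were called in either direction, 61.4% of them higher. Krt18 was then at 0.31 ± 0.12 (adjusted p = 0.0565), Krt8 at 0.27 ± 0.13 (adjusted p = 0.12), Krt7 at 0.18 ± 0.11 (adjusted p = 0.24) and Clu at 0.42 ± 0.18 (adjusted p = 0.0783). With the day 28 bleomycin and PBS groups fitted alone, 2 of the 10 genes passed, Cldn4 and Areg, and 120 of 14741 genes in all, so that few genes of any kind were called. The 10 lungs also had higher sums of alveolar type 2 markers (30850 to 39896 CPM, against 11710 to 27484 CPM in the other 12 lungs of day 28) and of airway secretory markers (16568 to 51589 CPM against 9276 to 20353 CPM). Whether these differences in make-up bear on the member values was not tested.

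Whether the effect on day 42 differed from that on day 14 was tested directly. It was smaller for 6 of the 10 genes, where 4.67% of all genes were lower in this contrast. Ankrd1 had the largest difference, -1.89 ± 0.22 (adjusted p = 4.9e-09). Tnip3 differed by -1.14 ± 0.26, Krt8 and Krt18 by -0.82 ± 0.15 and -0.82 ± 0.16, Krt19 by -0.79 ± 0.15 and Krt7 by -0.57 ± 0.13. Cldn4 (-1.50 ± 0.58, adjusted p = 0.063), Sfn (-0.42 ± 0.58), Areg (-0.32 ± 0.31) and Clu (-0.29 ± 0.20) did not pass. Without the 5 libraries with markers of other tissues Cldn4 (-2.63) and Sfn (-1.72) passed too, which made 8 of 10, against 7.15% of all genes. In that fit the members outside the call were Areg and Clu.

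SB525334 was compared with vehicle in bleomycin lungs, which asks whether blocking ALK5 from day 12 changed these genes. On neither day did edgeR call any of the 10. On day 21 0.403% of all genes were called, 0 members had an unadjusted p under 0.05, and on day 28 8.37% of all genes were called and 1 member, Areg, had an unadjusted p under 0.05. DESeq2 and limma also called 0 of the 10 on both days. Shares of all genes called by these tools, or at an unadjusted p under 0.05, are not given beside these counts. Calls were also few over all genes on day 21 in edgeR, so 0 of 10 does not set the members apart from other genes. Krt8 was at 214 to 271 CPM (median 252) with SB525334 and 209 to 339 CPM (median 241) with vehicle on day 21, a difference of -0.04 ± 0.10. Cldn4 was at 17.1 to 25.1 CPM (median 22.8) with SB525334 and 13.4 to 37.4 CPM (median 16.0) with vehicle, or 0.09 ± 0.39, and Tnip3 at 9.64 to 17.8 CPM (median 15.2) against 10.5 to 21.6 CPM (median 14.8), or 0.02 ± 0.18. The groups overlapped for all 10 genes on both days, while 0.243% of all genes lay wholly higher and 0.275% wholly lower on day 21 and 0.0447% and 0.0575% on day 28.

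Areg had the largest difference on both days. With SB525334 it was at 6.67 to 12.4 CPM (median 7.83) on day 21, against 7.76 to 16.2 CPM (median 11.8) with vehicle. On day 28 it was at 5.18 to 17.1 CPM (median 9.26) against 8.22 to 26.2 CPM (median 12.1). These gave -0.42 ± 0.22 (adjusted p = 0.72) and -0.57 ± 0.23 (adjusted p = 0.099), neither of which passed. The other 9 genes lay between -0.23 and 0.09 on day 21 and between -0.47 and 0.07 on day 28, with SEs of 0.09 to 0.42. The median of the 10 was -0.03 and -0.12, and of all genes 0.01 and -0.03. No difference between the effects on the 2 days passed for the 10, with 0.173% of all genes called in that contrast and 0 members at an unadjusted p under 0.05. Since 6 of 8 SB525334 lungs and 3 of 7 vehicle lungs of day 28 were among those high in ribosomal protein genes, and without them 2 SB525334 lungs remain, the day 28 comparison cannot be told apart from that make-up.

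**Figure D4:**
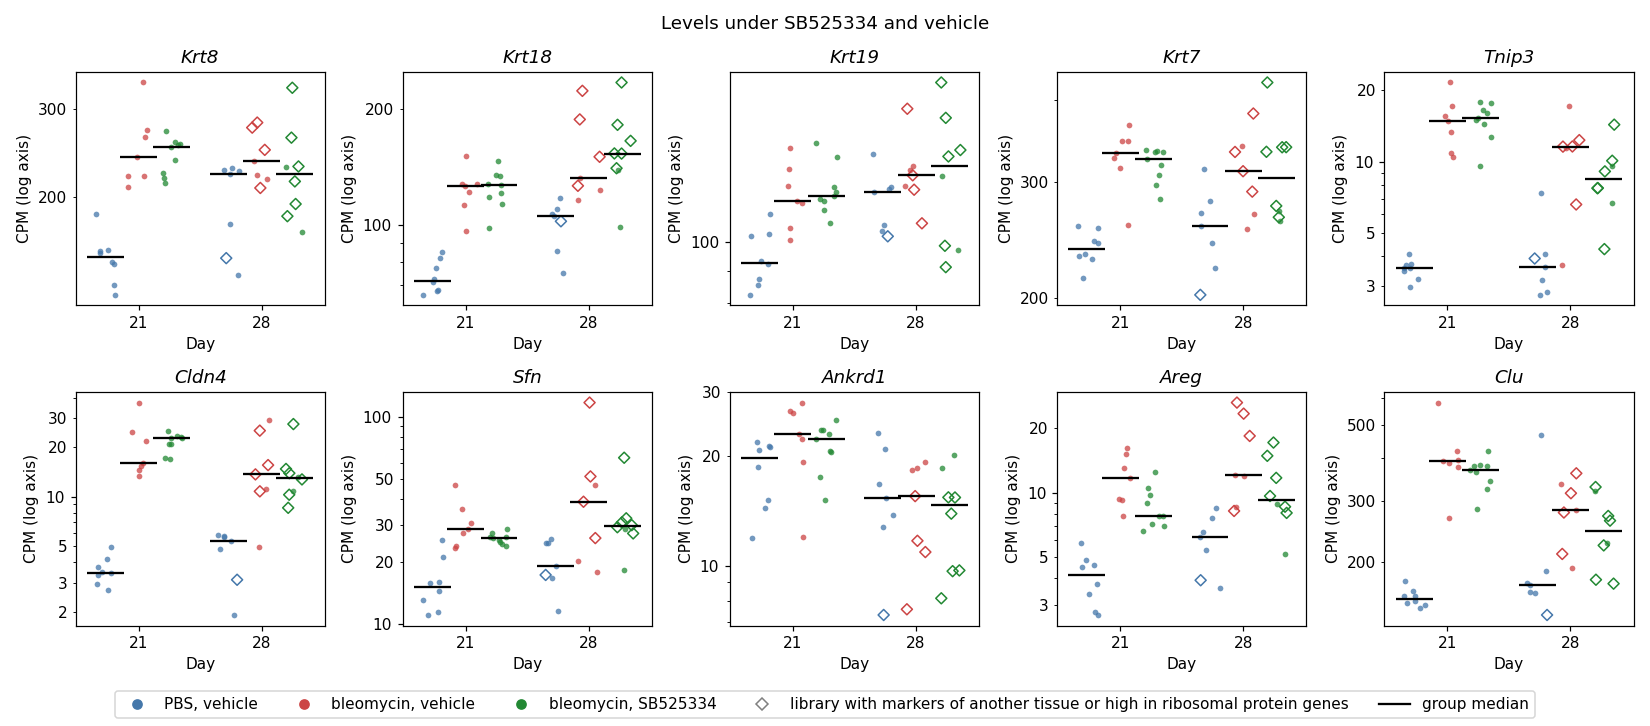
CPM (log axis) of each of the 10 genes on days 21 and 28 in PBS lungs with vehicle (blue), bleomycin lungs with vehicle (red) and bleomycin lungs with SB525334 (green), with the group median as a bar; open diamonds are libraries with markers of another tissue or high in ribosomal protein genes. The SB525334 and vehicle lungs overlap in every panel, and most SB525334 lungs of day 28 are diamonds.

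The PBS lungs were not flat over time. An F test over the 5 days of PBS called Krt18, Cldn4, Sfn and Areg, 4 of the 10, where 21.7% of all genes were called. PBS medians of Krt18 were 74.1, 76.7, 71.7, 106 and 77.6 CPM on days 7, 14, 21, 28 and 42, so that day 28 was high. Krt8 had medians of 158, 157, 152, 223 and 165 CPM in the same order (adjusted p = 0.094). PBS medians of Areg were 8.50, 5.31, 4.15, 6.23 and 4.18 CPM. Without the 5 libraries with markers of other tissues Krt18, Sfn and Areg were called, against 23.6% of all genes, and Cldn4 was not (adjusted p = 0.49).

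Per kilobase of merged exons, the median level in the 36 PBS lungs without other-tissue markers was highest for Krt8, at 82.0 CPM per kb, followed by Krt19 (55.0), Krt18 (53.7), Clu (47.4) and Krt7 (35.6). Sfn (8.19), Ankrd1 (6.28), Areg (4.28), Cldn4 (1.88) and Tnip3 (0.344 CPM per kb) followed. Ranges of neighbours in this order overlapped, except that Krt7 lay wholly above Sfn and Cldn4 wholly above Tnip3. Merged exons include those of minor transcripts, which lowers the value most for Tnip3 (10916 bases) and Krt7 (7049 bases).

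Within a group the same lung was often extreme for many of the 10 genes. For how many of all genes a lung was extreme was not counted. Whether these ranks were particular to the members was therefore not shown. Among bleomycin lungs, replicate 4 of day 7 was the highest for 9 of the 10 (all but Tnip3), replicate 1 of day 21 with vehicle for 9 (all but Ankrd1) and replicate 4 of day 42 for 7. Replicate 2 of day 28 with SB525334 was the highest for 8. Replicate 8 of day 14, replicate 2 of day 21 and replicate 6 of day 28 with vehicle were each the lowest for 6. In replicate 1 of day 21 Cldn4 was at 37.4 CPM, Krt8 at 339 CPM and Clu at 580 CPM, and the next highest lungs of that group had 24.8, 272 and 421 CPM. All 10 values of a lung come from the same library and share its depth and make-up. The part of these in the ranks was not tested, so this is a description of these lungs.

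Over the means of the 12 lung groups Pearson's r of mean log2 CPM between members other than Ankrd1 ran from 0.515 (Krt19 with Clu) to 0.968 (Tnip3 with Cldn4), and was 0.944 for Krt8 with Krt18. For Ankrd1 r with the other 9 ran from 0.267 (Clu) to 0.692 (Krt19), so the ranges overlapped. Group means share days, plates and the libraries above, so no test is given. The genes with the nearest course to each member, 3 for each, were Lrrc59, Psat1 and Ptger2 for Krt8 (r 0.97 each), Cd302, Ldha and Anxa2 for Krt18 (0.99 each) and Tcp1, Psmc3 and Dstn for Krt19 (0.94 to 0.95). For Krt7 they were Serpina3i, Tarm1 and Maea (0.97 each), for Tnip3 Piwil4, Svop and Nipa2 (0.98 to 0.99) and for Cldn4 Anxa1, Thbs4 and Ntsr2 (0.98 each). For Sfn they were Tnfrsf12a, Tpm1 and Tubb6 (0.95 to 0.97), for Ankrd1 Ift74, Rbbp7 and Abcf2 (0.96 each), for Areg Zdhhc13, Spint1 and Slc23a3 (0.95 to 0.96) and for Clu Glb1, Pisd and Lgals3bp (0.98 to 0.99).

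Genes linked to the same alveolar state beyond the 10 rose more often than they fell. Of 20 such genes 10 rose and 2 fell on day 7, 13 and 1 on day 14, 12 and 1 on day 21, 13 and 1 on day 28 and 10 and 1 on day 42. Without the 5 libraries with markers of other tissues 12 rose and 0 fell on day 7, and 14 and 1 on days 14 and 21. On days 28 and 42 the counts were then 16 and 0, and 11 and 1. On day 14 the stress hormone Gdf15 rose by 3.81 ± 0.25, and the p53 targets Cdkn1a, Phlda3 and Mdm2 rose by 2.60 ± 0.18, 1.96 ± 0.13 and 0.88 ± 0.05. On day 42 Gdf15 (2.20 ± 0.24), Phlda3 (0.93 ± 0.13) and Cdkn1a (0.97 ± 0.17) were still higher, as were the members Tnip3, Areg and Clu, while Krt8 did not pass. The effects of list genes and members were not tested against each other. The fall in effect from day 14 to day 42 passed for 9 of the 20, and 1 went the other way (9 and 0 without the 5 libraries). p53 targets respond to DNA damage in any cell type, and this list too was compiled with earlier results of these data known.

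Markers of the neighbouring alveolar cells gave no such single direction. Of 15 alveolar type 2 markers 4 rose and 1 fell on day 7, 4 and 5 on day 14, 3 and 1 on day 21, 3 and 0 on day 28 and 0 on day 42 in edgeR, with 1 at an unadjusted p under 0.05. With the 5 libraries that held markers of other tissues left out, 3 rose and 3 fell on day 7, and 3 and 7 on day 14. On day 14 the protease Napsa and the collectin Sftpd rose by 0.43 ± 0.09 and 0.48 ± 0.12, and Hc and the phosphate carrier Slc34a2 fell by 0.66 and 0.38 on the log2 scale. Of 14 alveolar type 1 markers 2 rose and 3 fell on day 7, 2 and 7 on day 14, 3 and 4 on day 21, 6 and 3 on day 28 and 2 and 2 on day 42. With the same 5 libraries left out 2 rose and 4 fell on day 7, 2 and 8 on day 14, 5 and 4 on day 21, and 3 and 1 on day 42. On day 14 Rtkn2, Clic5 and Hopx fell by 1.00, 0.59 and 0.69 on the log2 scale, and Igfbp2 rose by 0.97 ± 0.17. Of 10 airway secretory markers 2 rose and 2 fell on day 7, 5 and 2 on day 14, 1 and 2 on days 21 and 28 (2 and 2 on day 28 without the 5 libraries), and 2 and 2 on day 42. The mucin Muc5ac rose by 2.26 ± 0.39 on day 14 and Cyp2f2 of club cells fell by 0.68 on the log2 scale. Of 10 ciliated cell markers 0 rose and 2 fell on day 7, 3 and 1 on day 14, 0 and 1 on day 21, 1 and 0 on day 28 and 0 and 1 on day 42. Ciliated markers that rose on day 28 numbered 2, and those that fell on day 42 0, without the 5 libraries. Airway cells also express Krt8, Krt18, Krt19, Krt7 and Cldn4, and the part of these markers in the member values was not tested. Of 8 basal cell markers, shared in part with the epidermal list, 7 fell on day 7 and 6 on day 14, and without the 5 libraries 0 fell on either day and 1 rose on day 14.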

How the data were processed

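Per the submitters' processing notes, the authors estimated expected counts per gene with RSEM on GRCm38 and derived log2 CPM with edgeR; versions are not given in the sources used here, and the labels' protocols describe stranded total RNA with ribosomal RNA removed. The deposited expected counts (83.7% whole numbers) were rounded to whole numbers. Of 22095 gene IDs, 243 had no name in the annotation, and no column lay outside the series' samples. Groups came from the labels, in 93 lung libraries of 12 groups, and whether libraries are separate animals is not stated, so p-values measure the spread between libraries. Low counts were filtered with filterByExpr, which left 15647 genes, libraries were scaled with TMM, and edgeR 4.0.16 (R 4.3.3) fitted a quasi-likelihood model over all 12 groups with preparation plate as a term. P-values were adjusted by the method of Benjamini and Hochberg over all genes tested. The SE is the fold change divided by the square root of F.

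Alternatives were other scaling (RLE), no filter, no plate term, 2 groups alone, a replicate block, DESeq2 1.42.0, and limma 3.58.1 on the deposited plate-corrected log2 CPM, for which the authors' values were used as given. Leaving out doubted libraries (at least 500 CPM of markers of another tissue, at least 4% ribosomal protein counts, or at least 14% of counts in 10 genes), or PBS replicate 6 of day 28, was chosen after seeing the data. Scripts were tested on simulated data. Tables were handled in Python 3.11.15 with pandas 2.3.3.

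The 10 genes and the gene lists were chosen with earlier results of these data known. All 10 are named; of each list up to 4 tested genes with the smallest p were named, and for each member the 3 genes with the most similar course. Promoter windows came from RefSeq on GRCm38.p6 and matched 8 of the 10 by symbol. Skin and lung tables were scaled separately. Counts give the depth, and intervals beyond the SE were not computed.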

Additional observations from a re-analysis of the deposited data

Results flagged for a closer look

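Of 120 combinations of a gene and a lung group, 14 had a highest or lowest lung far from its group by Dixon's criterion. Chance gives this in about 1 in 20 groups of normally distributed values. The genes were read from the same libraries, so the combinations are not independent and 14 was not tested against that rate. PBS replicate 6 of day 14, with epidermal and hair markers, was the highest of 8 for Cldn4 at 33.5 CPM and Sfn at 133 CPM, and the lowest for Krt7 at 178 CPM. Bleomycin replicate 1 of day 42, with liver markers, was the lowest of 8 for Krt18 at 68.1 CPM, Krt19 at 45.5 CPM and Krt7 at 136 CPM. PBS replicate 6 of day 28, highest in mesothelial markers, was the highest of 7 for Clu at 466 CPM and Tnip3 at 7.37 CPM. SB525334 replicate 2 of day 28, high in ribosomal protein genes, was the highest of 8 for Cldn4 at 27.7 CPM and Sfn at 63.4 CPM. PBS replicate 3 of day 14 was the highest of 8 for Krt18 at 124 CPM and Krt19 at 140 CPM. PBS replicate 5 of day 14 was the highest of 8 for Tnip3 at 6.24 CPM, and bleomycin replicate 5 of day 21 with vehicle was the lowest of 7 for Krt7 at 258 CPM.

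The bleomycin effect differed between days 14 and 42 in edgeR for 6 genes, as the day 42 effect minus that of day 14: Krt8 -0.82, Krt18 -0.82, Krt19 -0.79, Krt7 -0.57, Tnip3 -1.14 and Ankrd1 -1.89 on the log2 scale.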

How the results depend on the processing

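Of 960 single-gene values recomputed under an alternative setting, 877 kept their direction and their side of the threshold, 27 passed where they had not, 23 no longer passed and 33 turned in sign; the cause was not tested. With the 2 compared groups alone 2 of the 10 genes were called on day 28 in place of 8, without the 10 libraries high in ribosomal protein genes 3, and without all 18 doubted libraries 4. The day 28 calls over all genes also moved under these settings, with counts given below. With limma on the deposited log2 CPM 2 were called higher or lower on day 42 in place of 4. The share of all genes called by limma on day 42 is not given. Whether that drop was particular to the members was therefore not shown. Across the days of PBS 7 were called both without the 10 and without the 18 libraries, in place of 4, where 31.8% and 36.7% of all genes were called in place of 21.7%.

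Signs turned for Sfn on day 7 with limma (0.37), without the 5 libraries with markers of other tissues (1.36) and without the 18 (1.37). Most other turns were of values near 0. Krt7 on day 42 became 0.0071 without the 5 and 0.0094 without the 18, and Ankrd1 on day 28 became 0.041 without the 10 and 0.048 without the 18. For SB525334 on day 21, Krt18 became -0.017 with 2 groups alone, -0.014 with limma, -0.0057 without the 10 and -0.0045 without the 18, Tnip3 became -0.0070 with 2 groups alone and Krt19 -0.0084 with limma. For SB525334 on day 28, Krt19 became -0.0018 without the plate term, -0.0030 with 2 groups alone, -0.025 with limma, -0.0023 without the 5, and -0.20 without the 10 and without the 18. Cldn4 became 0.017 without the 5. Without the 10 and without the 18, Krt18 became -0.12 and -0.087 and Krt7 -0.084 and -0.060. For the difference of the SB525334 effects, Sfn became 0.18 and 0.14 and Clu 0.074 and 0.18 without the 5 and without the 18, and Clu 0.047 without the 10. Krt18 became -0.11 and -0.083 and Krt7 -0.051 and -0.030 without the 10 and without the 18.

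Replicate numbers were not taken to pair libraries: on day 14, 2 of 8 same-numbered pairs had deviations correlated over 0.1, on day 7, 4 of 7, on day 21, 3 of 7, on day 28, 1 of 7 and on day 42, 2 of 8. For SB525334 and vehicle it was 6 of 7 on day 21, where 4 libraries correlated best with their own number, and 3 of 7 on day 28. No comparison had every pair over 0.1. With the replicate number as a block, 10 of the 10 genes were called on day 14 in place of 9. In the day 42 minus day 14 contrast 7 were called lower in place of 6. Across the days of PBS 3 were called in place of 4, where 17.8% of all genes were called in place of 21.7%. The member counts of the other comparisons did not move. For day 14 and the contrast no share of all genes with the block is given. Whether those changes were particular to the members was therefore not shown.

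Counts over all genes called moved by over 1.5 times in these cases. On day 21 it was 8719 with 2 groups alone against 5516. On day 28 it was 120 with 2 groups alone, 3697 without the 10 and 3538 without the 18, against 5955. For SB525334 on day 21 (63) it was 121 with DESeq2, 891 with 2 groups alone, 41 with the block, 150 without the 5, 140 without the 10 and 353 without the 18. For SB525334 on day 28 (1310) it was 866 without the plate term, 0 with 2 groups alone, 687 without the 5, 68 without the 10 and 135 without the 18. For the difference of SB525334 effects (27) it was 51 with DESeq2, 0 with the block, 0 without the 5, 10 without the 10 and 1 without the 18. For day 42 minus day 14 (2399) it was 4396 without the 10 and 4517 without the 18. The share of calls that were higher was 50.2% with limma against 65.1% on day 42. It was 25.0% against 44.4% and 44.4% against 31.5% for SB525334 on days 21 and 28 with limma, and 21.6% with DESeq2 against 11.1% for their difference. Other settings moved this share too. On day 42 it was 54.7% without the 5, 51.1% without the 18 and 53.6% with 2 groups alone. For day 42 minus day 14 it was 55.9% without the 5 and 51.0% without the 18, against 69.6%. On day 28 it was 75% with 2 groups alone against 51.7%. Depth limits Tnip3, Cldn4 and Areg most, which lay below 10 CPM in most PBS lungs.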
